A study of Mus musculus with 24 samples.

Results

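The 9 genes described here encode organic anion and organic cation transporters of the Slc22 family that are used by the kidney: Slc22a6, Slc22a8, Slc22a7, Slc22a12, Slc22a13, Slc22a19, Slc22a30, Slc22a2 and Slc22a4. They were taken by symbol from the table of 48526 genes, and each symbol matched 1 entry. The series holds RNA-seq of kidney cortex from C57BL/6 mice, with 24 libraries in 4 groups of 6. The groups were diabetic mice given PMX-53, diabetic mice given vehicle, non-diabetic mice given PMX-53 and non-diabetic mice given vehicle. Diabetes was induced with streptozotocin (STZ), a toxin of the insulin-producing beta cells, in 5 daily injections of 55 mg/kg from 6 weeks of age. The non-diabetic mice were given sodium citrate (0.5 M) in place of STZ. PMX-53 is a cyclic peptide inhibitor of C5aR1, the receptor of the complement fragment C5a, and was given at 2 mg/kg in the drinking water. Vehicle was drinking water alone, and all mice were followed for 24 weeks. The sex of the mice is not given in the sources used here.

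Proximal tubule cells clear drugs, toxins and waste metabolites from the blood. Organic anions enter these cells from the blood side in exchange for dicarboxylates such as alpha-ketoglutarate, organic cations enter down the membrane potential, and other transporters on the urine side secrete or reclaim them. Slc22a6 (OAT1) and Slc22a8 (OAT3) are the main basolateral organic anion uptake carriers, Slc22a2 (OCT2) is the basolateral organic cation carrier, and Slc22a12 (URAT1) reclaims urate from the urine side.

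In the vehicle-treated mice, diabetes went with lower RNA of 6 of these 9 genes and with higher RNA of none, where 19.9% of all tested genes were called lower and 20.4% higher. Slc22a7 was 7.09-fold lower, Slc22a30 4.47-fold lower and Slc22a12 2.48-fold lower in diabetic than in non-diabetic vehicle mice, whereas Slc22a8 differed by -0.49 on the log2 scale and Slc22a6 did not pass the test. In diabetic mice, PMX-53 went with higher RNA of Slc22a7, Slc22a30, Slc22a12 and Slc22a4 and with lower RNA of Slc22a13, where 13.9% of all tested genes were called higher and 13.5% lower. In non-diabetic mice none of the 9 passed the test with PMX-53, and neither did any of the 15808 genes tested. Together the 9 genes took 0.192% to 0.269% of the counts in diabetic PMX-53 libraries, 0.126% to 0.199% in diabetic vehicle libraries, 0.264% to 0.302% in non-diabetic PMX-53 libraries and 0.277% to 0.322% in non-diabetic vehicle libraries.

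Of the 9 genes, 5 lie on chromosome 19 of the GRCm38 build, all with introns and all protein-coding. Slc22a8 (chr19:8591254-8611835) and Slc22a6 (chr19:8618039-8628299) are neighbours on the plus strand, 6.20 kb apart with no protein-coding gene between them. Slc22a12 (chr19:6535845-6543032), Slc22a19 (chr19:7673061-7711310) and Slc22a30 (chr19:8335371-8405111) are on the minus strand. Slc22a2 (chr17:12584132-12628488) and Slc22a7 (chr17:46432183-46438457) share chromosome 17, while Slc22a4 (chr11:53983123-54028090) and Slc22a13 (chr9:119192974-119209098) stand apart. Reads of Slc22a30 are hard to assign, since Slc22a28, a close copy on the same chromosome, differs from it at 20 of 1656 coding bases. A 120-base stretch of both coding sequences, at coding positions 662 to 781, is shown because it carries 4 of those differences, given in capitals. It lies at chr19:8386441-8386560 for Slc22a30 and chr19:8116786-8116905 for Slc22a28, both read from the minus strand of GRCm38 (GENCODE M21).
Slc22a30: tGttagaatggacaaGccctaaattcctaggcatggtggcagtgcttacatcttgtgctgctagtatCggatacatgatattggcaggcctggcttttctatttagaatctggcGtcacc
Slc22a28: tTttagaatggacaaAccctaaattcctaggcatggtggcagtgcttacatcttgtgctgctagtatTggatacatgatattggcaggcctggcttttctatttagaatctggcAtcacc
Across the annotated transcripts, 34.3% of the 50-base words of Slc22a30 also occur in another gene, and 31.0% of all its words occur in Slc22a28, so the level of Slc22a30 is uncertain where reads could fall to either gene. For Slc22a13 this share was 36.0%, all of it with the pseudogene Slc22a13b-ps, which itself held 1 to 16 counts per library. For Slc22a12 it was 27.4%, all with Nrxn2, which overlaps 682 exon bases of Slc22a12 on the other strand and held 64 to 154 counts, against 5010 to 21107 for Slc22a12. The share was at most 4.44% for the other 6 genes. Whether reads were counted by strand is not given in the sources used here.

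The promoters of the neighbours Slc22a6 and Slc22a8 are shown with that of Slc22a12, since these are the highest of the 9 organic anion and cation carriers per length. Each is the 250 bases before the gene's start in RefSeq, on GRCm38.p6. They lie at chr19:8617746-8617995 (plus strand) for Slc22a6, chr19:8592932-8593181 (plus strand) for Slc22a8 and chr19:6543071-6543320 (minus strand) for Slc22a12. The stretch of Slc22a8 falls inside the GENCODE span of that gene given above, since the RefSeq start lies further downstream. Capitals mark GTTAAT, a core of the hepatocyte nuclear factor 1 (HNF1) motif, searched on both strands.
Slc22a6: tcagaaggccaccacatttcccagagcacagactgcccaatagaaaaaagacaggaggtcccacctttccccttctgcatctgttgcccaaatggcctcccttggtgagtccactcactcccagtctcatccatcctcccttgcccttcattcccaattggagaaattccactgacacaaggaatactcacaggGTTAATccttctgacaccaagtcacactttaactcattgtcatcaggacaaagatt
Slc22a8: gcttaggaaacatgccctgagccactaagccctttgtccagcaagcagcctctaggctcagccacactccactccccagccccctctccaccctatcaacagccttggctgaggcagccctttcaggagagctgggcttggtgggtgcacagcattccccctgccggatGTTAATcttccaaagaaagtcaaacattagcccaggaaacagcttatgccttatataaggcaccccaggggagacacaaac
Slc22a12: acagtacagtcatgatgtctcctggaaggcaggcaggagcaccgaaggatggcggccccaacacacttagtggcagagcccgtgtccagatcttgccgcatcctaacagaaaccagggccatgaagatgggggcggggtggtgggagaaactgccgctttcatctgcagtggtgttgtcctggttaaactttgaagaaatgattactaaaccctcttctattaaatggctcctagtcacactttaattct
RefSeq held a promoter for 8 of the 9 genes, Slc22a7 being the exception. GTTAAT was found in those of Slc22a6 and Slc22a8 and in 6.43% of all 32851 promoters. Searched on both strands, the full HNF1 palindrome (0.00913% of all promoters), the HNF4 core CAAAGTCCA (0.384%) and TATAAA (12.4%) were in none of the 8, and the androgen receptor core AGAACA (16.1%) was in that of Slc22a19. These matches are a description of letters and not of binding.

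Levels of different genes were set roughly side by side per kilobase of annotated exon, CPM being the count scaled to library size. By this measure Slc22a12 was the highest of the 9 in non-diabetic vehicle mice, at 521 ± 34.2 CPM per kilobase (SD, n = 6). Slc22a6 followed at 197 ± 29.8, Slc22a8 at 103 ± 18.1 and Slc22a2 at 85.4 ± 3.43, and the ranges of Slc22a8 and Slc22a2 overlapped. Slc22a30 stood at 42.8 ± 5.96 and Slc22a7 at 31.2 ± 8.39, also with overlapping ranges. Slc22a4 at 21.0 ± 1.57, Slc22a13 at 17.4 ± 4.66 and Slc22a19 at 6.36 ± 3.35 were the lowest, and each overlapped its neighbour in this order. In diabetic vehicle mice the order differed: the means of Slc22a30 (9.63 ± 7.03) and Slc22a7 (4.49 ± 5.26) lay below those of Slc22a13 (18.9 ± 4.20) and Slc22a4 (15.1 ± 3.46). The length counts all annotated exons of a gene and not the transcripts made, so this order is approximate. Slc22a19 has 5.43 kb of exon and Slc22a13 2.00 kb. Their mean levels before division were 34.6 and 34.9 CPM in non-diabetic vehicle mice. Levels below are normalized CPM within a gene, not per length.

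**Figure D1:**
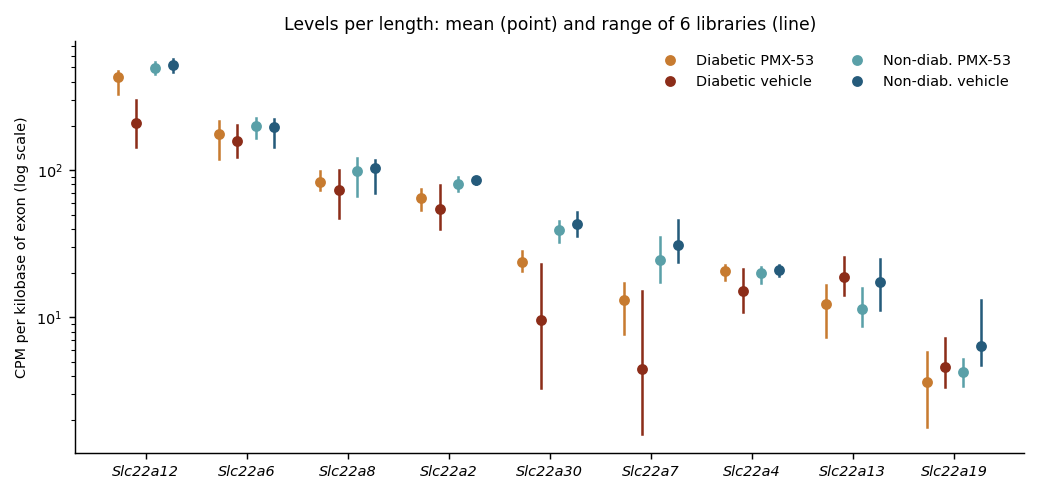
Level per kilobase of exon (log scale) of the 9 transporters in each group of 6 libraries, with points for means and lines from the lowest to the highest library. Slc22a12 was the highest gene in every group, at 521 CPM per kilobase in non-diabetic vehicle mice, and the ranges of Slc22a30 and Slc22a7 in diabetic vehicle mice were the widest on this scale.

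All 9 genes passed the filter on low counts, as did 15808 genes in all, and the call rule was an adjusted p under 0.05 in edgeR's quasi-likelihood test. Between diabetic and non-diabetic mice on vehicle, 6 of the 9 were called lower and 0 higher, against 19.9% of all tested genes called lower, 20.4% called higher and 40.3% called in either direction. The median log2 fold change was -0.49 over the 9 and -0.0014 over all genes. In 4 of the 9 (Slc22a2, Slc22a7, Slc22a12 and Slc22a30) every diabetic vehicle library lay below every non-diabetic vehicle library, against 7.02% of all tested genes, and none lay wholly above, against 7.86% (14.9% in either direction). Without scaling beyond library totals the 6 calls stayed and Slc22a6 joined them, while the calls over all genes were 1802 higher and 3982 lower, against 3223 higher and 3140 lower.

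PMX-53 in diabetic mice went with 4 of the 9 called higher and 1 called lower, against 13.9% and 13.5% of all tested genes (27.3% in either direction), with a median log2 fold change of 0.26. This comparison and the previous one share the diabetic vehicle libraries, so opposite directions in the pair are not independent. In 1 of the 9, Slc22a12, every diabetic PMX-53 library lay above every diabetic vehicle library, against 3.92% of all tested genes, and none lay wholly below, against 4.29% (8.20% in either direction). Without scaling beyond library totals 5 of the 9 were called higher and 0 lower, and the calls over all genes were 3586 higher and 924 lower, against 2190 higher and 2127 lower, and the median of all genes moved by 0.12 on the log2 scale.

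**Figure D2:**
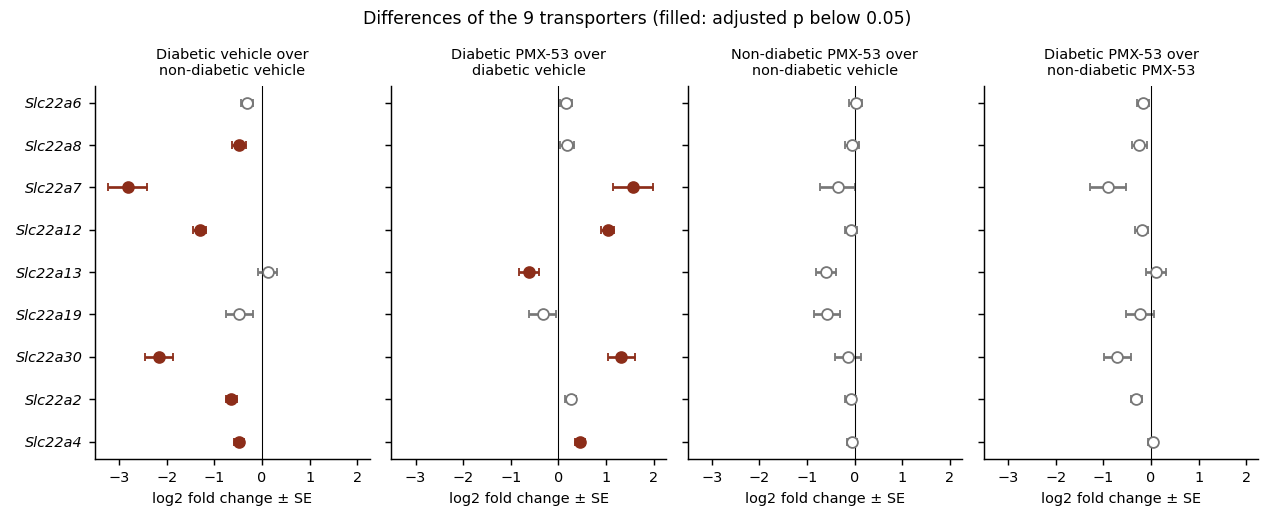
Log2 fold change with its standard error (horizontal axis) of the 9 transporters in the 4 pairwise comparisons, filled where the adjusted p is below 0.05. In diabetic vehicle mice 6 genes lie left of 0 as filled points, in PMX-53-treated diabetic mice 4 lie right and 1 left, and the other panels hold 0 filled points.

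PMX-53 in non-diabetic mice gave 0 calls among the 9 in edgeR, as it did among all genes (0% called), and also 0 of the 9 in DESeq2 and limma voom. At an unadjusted p below 0.05 there was 1 of the 9, Slc22a13, against 7.22% of all tested genes. In none of the 9 were the groups without overlap, against 0.221% of all tested genes higher and 0.221% lower (0.443% together). DESeq2 called 5 genes of all those tested and limma voom 0. Log2 fold changes of the 9 ran from -0.61 to 0.02 with adjusted p between 0.524 and 0.994, which does not show that their levels were equal.

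Between diabetic and non-diabetic mice that both received PMX-53, 0 of the 9 were called in edgeR, against 10.0% of all tested genes (5.52% higher and 4.52% lower). Unadjusted p in edgeR was below 0.05 for 3, Slc22a2, Slc22a7 and Slc22a30, and the share of all genes at that threshold was not counted. DESeq2 also called 0 of the 9, with 1782 of all 15808 genes called. In limma voom those 3 were called lower, with 2560 of all 15808 genes called in either direction. In Slc22a7 and Slc22a30 every diabetic PMX-53 library was below every non-diabetic PMX-53 library, against 3.03% of all tested genes (2.97% wholly above and 6.00% in either direction). A fit on only these groups called the same 3 genes, Slc22a2 at an adjusted p of 0.00808, Slc22a7 at 0.0220 and Slc22a30 at 1.32e-04. It called 2009 of the 15192 genes it tested. Leaving out replicate 4 of the diabetic vehicle group, which enters the shared estimate of spread but not this contrast, called the 3 too, at 0.0163 for Slc22a2, 0.00840 for Slc22a7 and 0.0115 for Slc22a30. Over all genes 1808 of 15955 were then called.

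The interaction is the PMX-53 difference in diabetic mice minus that in non-diabetic mice. It shares the diabetic vehicle libraries with diabetes on vehicle and PMX-53 in diabetic mice, so these results are not independent. The interaction was called for 4 of the 9, positive in each, against 4.66% of all tested genes called positive and 4.76% negative (9.42% together). Without scaling beyond library totals the interaction calls over all genes were 1059 positive and 277 negative, against 737 positive and 752 negative. The 4 were Slc22a12 (1.12 ± 0.19 on the log2 scale, adjusted p = 8.47e-04), Slc22a30 (1.46 ± 0.40, adjusted p = 0.0263), Slc22a4 (0.51 ± 0.15, adjusted p = 0.0315) and Slc22a7 (1.93 ± 0.56, adjusted p = 0.0351) in edgeR's quasi-likelihood test. Among the 4, Slc22a12 alone kept the call under all alternatives tried. The other 3 sat close to the threshold and their calls were lost in turn with single libraries, as given under their genes.

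**Figure D3:**
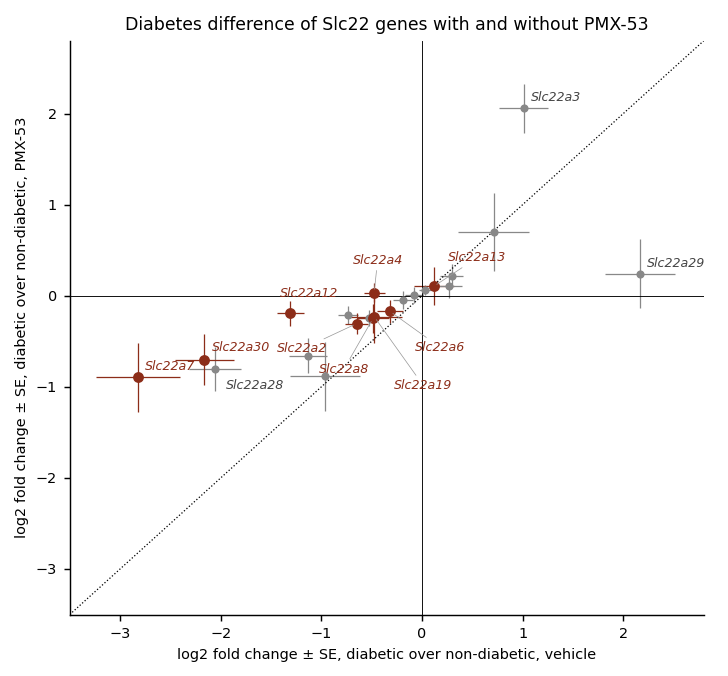
Log2 fold change with its standard error between diabetic and non-diabetic mice for the tested Slc22 genes, on vehicle (horizontal axis) and on PMX-53 (vertical axis), with the 9 transporters in red, other family members in grey and equal differences on the dotted line. The axes use separate libraries, and Slc22a7, Slc22a30 and Slc22a12 lie above the line with -2.83, -2.16 and -1.31 on vehicle and -0.90, -0.70 and -0.19 on PMX-53.

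Slc22a6, the basolateral carrier for which p-aminohippurate is the classic substrate, passed the test in no comparison. Its lowest, median and highest levels were 476, 717 and 854 CPM in diabetic PMX-53 mice, 492, 599 and 811 CPM in diabetic vehicle mice, 655, 797 and 908 CPM in non-diabetic PMX-53 mice, and 569, 819 and 890 CPM in non-diabetic vehicle mice. All 4 groups overlapped. The log2 fold change of -0.32 ± 0.13 between diabetic and non-diabetic vehicle mice missed the threshold (adjusted p = 0.0511, edgeR's quasi-likelihood test, lower than the non-diabetic mean in 5 of 6 libraries). It passed without scaling (adjusted p = 0.00637), in DESeq2 (0.0375), in limma voom (0.0303), with a CPM filter (0.0493), after thinning to equal depth (0.0499) and with a replicate block (0.0346). Single libraries decided it as well, since it passed without replicate 4 (0.0381) or 5 (0.0142) of the diabetic vehicle group, replicate 3 (0.0464) or 6 (0.0244) of the diabetic PMX-53 group, replicate 6 (0.0470) of the non-diabetic PMX-53 group or replicate 5 (0.0130) of the non-diabetic vehicle group. Under diabetes, PMX-53 gave 0.17 ± 0.13 (adjusted p = 0.362).

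Slc22a8, the basolateral carrier of larger organic anions such as estrone sulfate, was lower in diabetic vehicle mice. The lowest, median and highest levels were 285, 305 and 387 CPM with PMX-53 and diabetes, 186, 297 and 391 CPM with vehicle and diabetes, 263, 395 and 475 CPM with PMX-53 alone and 273, 432 and 459 CPM in non-diabetic vehicle mice. Diabetic and non-diabetic vehicle libraries overlapped, although all 6 diabetic ones were below the non-diabetic mean. The log2 fold change was -0.49 ± 0.16 (adjusted p = 0.0155 in edgeR's quasi-likelihood test) and remained called with any library left out (adjusted p at most 0.0385). Under diabetes, PMX-53 gave 0.18 ± 0.16 (adjusted p = 0.420). Slc22a8 and its neighbour Slc22a6 shared a coding identity of 59.4% over aligned bases.

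Slc22a7 (OAT2), an organic anion carrier whose human form is best known from liver, had the largest fold change of the 9 with diabetes on vehicle. It ranged over 16.3, 28.6 and 36.2 CPM (lowest, median, highest) in diabetic PMX-53 mice, 3.39, 5.69 and 31.8 CPM in diabetic vehicle mice, 36.4, 49.3 and 74.3 CPM in non-diabetic PMX-53 mice, and 49.7, 61.6 and 96.4 CPM in non-diabetic vehicle mice. The diabetic vehicle libraries lay below all non-diabetic libraries of either kind, and overlapped the diabetic PMX-53 libraries only through replicate 4. Diabetic against non-diabetic vehicle mice gave -2.83 ± 0.42 on the log2 scale (adjusted p = 1.96e-05 in edgeR's quasi-likelihood test), and -3.72 without replicate 4. PMX-53 under diabetes gave a 2.98-fold higher level (1.57 ± 0.42 on the log2 scale, adjusted p = 0.00852), and 2.46 on the log2 scale without replicate 4. A fit on only the diabetic groups ended this call (adjusted p = 0.0629).

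The interaction of Slc22a7, 1.93 at an adjusted p of 0.0351, was 2.82 (adjusted p = 1.49e-05) without diabetic vehicle replicate 4. It was no longer called without diabetic vehicle replicate 1 (0.0584), 2 (0.0672), 3 (0.0542), 5 (0.0559) or 6 (0.0595), diabetic PMX-53 replicate 2 (0.0580), 3 (0.0570) or 5 (0.0528), non-diabetic PMX-53 replicate 2 (0.0534), 4 (0.0548) or 5 (0.0559), or non-diabetic vehicle replicate 5 (0.0516), with log2 values from 1.75 to 1.91, nor with a replicate block (0.0541) or without a low-count filter (0.0676).

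Slc22a12, the urate reabsorption carrier, gave the smallest p of the 9 in both comparisons with diabetic vehicle mice. The lowest, median and highest levels were 750.0, 1029.8 and 1076 CPM in diabetic PMX-53 mice, 327, 446 and 683 CPM in diabetic vehicle mice, 1015, 1107 and 1222 CPM in non-diabetic PMX-53 mice, and 1048, 1192 and 1279.7 CPM in non-diabetic vehicle mice. No diabetic vehicle library reached the lowest library of any other group, whereas the other 3 groups overlapped one another. Diabetes on vehicle gave a log2 fold change of -1.31 ± 0.14 (adjusted p = 7.36e-08), and PMX-53 given to diabetic mice one of 1.04 ± 0.14 (adjusted p = 6.76e-06), both in edgeR's quasi-likelihood test. Between diabetic and non-diabetic mice on PMX-53 it was -0.19 ± 0.13 (adjusted p = 0.403). With any 1 library left out, the difference with diabetes on vehicle stayed between -1.44 and -1.22 and that with PMX-53 between 0.95 and 1.17.

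Slc22a13 (OAT10), an exchanger of urate and nicotinate on the urine side in humans, was the 1 gene called lower with PMX-53 in diabetic mice. Its lowest, median and highest levels were 14.6, 27.4 and 33.1 CPM in diabetic PMX-53 mice, 28.3, 35.2 and 51.6 CPM in diabetic vehicle mice, 17.6, 22.1 and 31.5 CPM in non-diabetic PMX-53 mice, and 22.7, 34.6 and 50.1 CPM in non-diabetic vehicle mice. The PMX-53 libraries were at the low end in both diabetic and non-diabetic mice, with overlap in each. PMX-53 gave -0.62 ± 0.20 on the log2 scale in diabetic mice (adjusted p = 0.0280 in edgeR's quasi-likelihood test) and -0.61 ± 0.21 in non-diabetic mice (unadjusted p = 0.00761, adjusted p = 0.524). All 6 PMX-53 libraries lay below the vehicle mean in each. The call in diabetic mice was lost without scaling (-0.49, adjusted p = 0.0798), without a low-count filter (0.0549), and without diabetic PMX-53 replicate 1 (0.0687) or 4 (0.0657) or diabetic vehicle replicate 2 (0.0770). Diabetes on vehicle gave 0.12 ± 0.20 (adjusted p = 0.674) and the interaction -0.01 ± 0.29 (adjusted p = 0.984). Log2 fold changes of Slc22a19 with PMX-53 were also negative, at -0.33 in diabetic and -0.58 in non-diabetic mice, neither called.

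Slc22a19 (Oat5), a rodent organic anion carrier of the urine side of the late proximal tubule, was the lowest of the 9 per length by its mean in all groups but diabetic vehicle, where Slc22a7 was lower, and passed in no comparison. It had 9.77, 21.1 and 31.8 CPM (lowest, median, highest) in diabetic PMX-53 mice, 18.3, 22.7 and 39.4 CPM in diabetic vehicle mice, 18.7, 21.3 and 28.5 CPM in non-diabetic PMX-53 mice, and 25.8, 27.5 and 71.6 CPM in non-diabetic vehicle mice. All groups overlapped, and replicate 5 of the non-diabetic vehicle group stood far above the 25.8 to 28.8 CPM of the other 5. The same library was the lowest of its group for Slc22a6 (569 CPM), Slc22a8 (273 CPM) and Slc22a12 (1048 CPM). It was the highest for Slc22a7 (96.4 CPM) and Slc22a13 (50.1 CPM). The difference with diabetes on vehicle was -0.47 ± 0.28 on the log2 scale (adjusted p = 0.183, edgeR's quasi-likelihood test), and -0.13 without that library. PMX-53 gave -0.33 ± 0.29 in diabetic mice (adjusted p = 0.421) and -0.58 ± 0.28 in non-diabetic mice (adjusted p = 0.693).

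**Figure D4:**
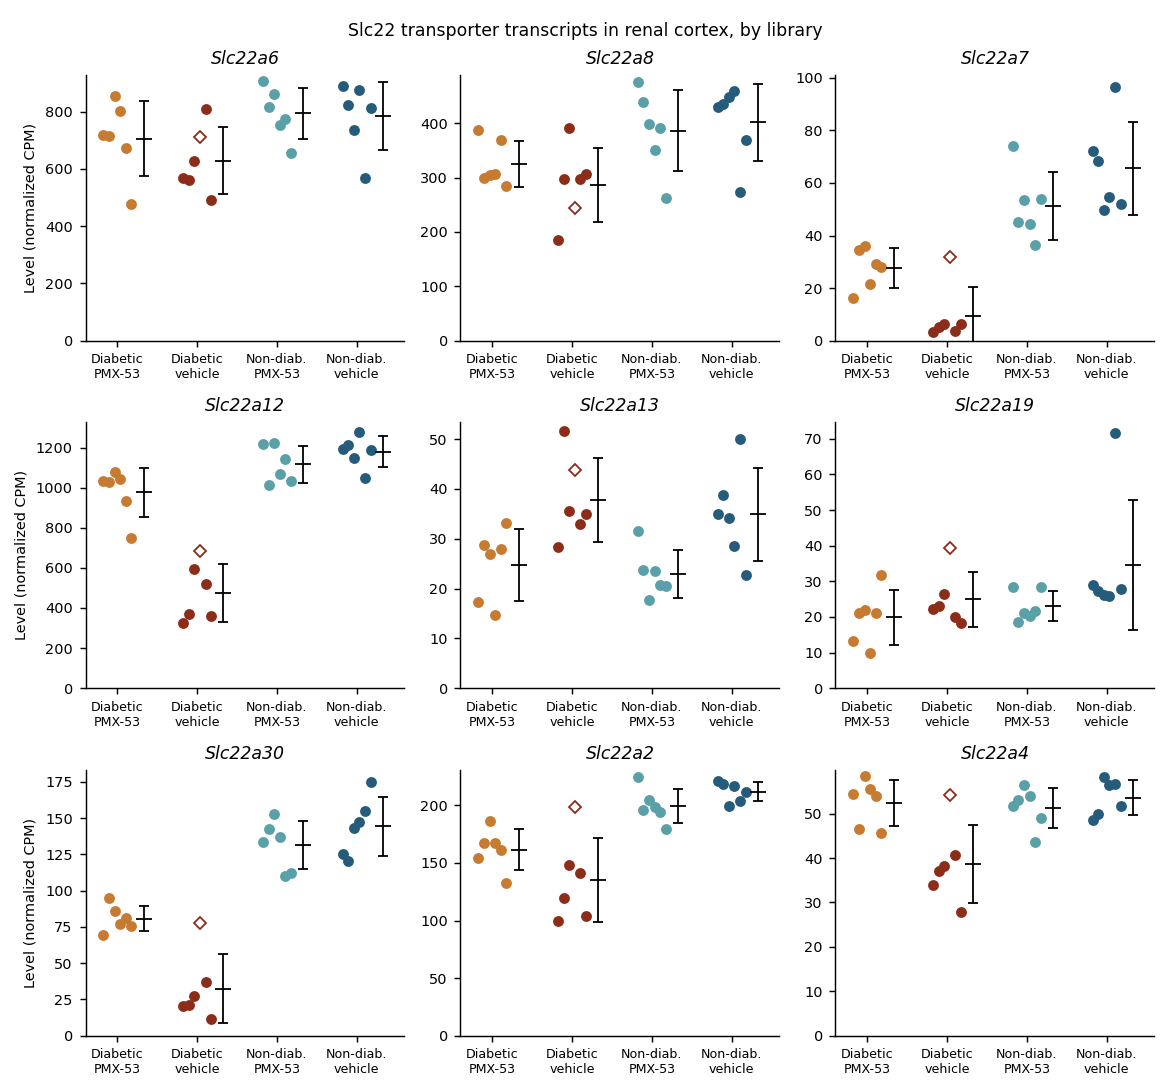
Normalized CPM of the 9 transporters in every library, with mean and SD beside each group of 6 and diabetic vehicle replicate 4 as an open diamond (lower SD bars end at the axis). The diamond stands at 31.8 CPM for Slc22a7, above the other 5 libraries of its group at 3.39 to 6.48 CPM, and the highest point of Slc22a19 is non-diabetic vehicle replicate 5 at 71.6 CPM.

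Slc22a30 belongs to a run of family members on chromosome 19 that includes Slc22a28 and Slc22a29. It ranged over 69.6, 79.1 and 94.9 CPM (lowest, median, highest) in diabetic PMX-53 mice, 11.2, 24.2 and 77.5 CPM in diabetic vehicle mice, 110.4, 135 and 153 CPM in non-diabetic PMX-53 mice, and 120.3, 145 and 175 CPM in non-diabetic vehicle mice. Both diabetic groups lay wholly below both non-diabetic groups, and the diabetic vehicle libraries were below the diabetic PMX-53 libraries except for replicate 4. Log2 fold changes were -2.16 ± 0.29 for diabetes on vehicle (adjusted p = 7.04e-06) and 1.32 ± 0.29 for PMX-53 under diabetes (adjusted p = 0.00195) in edgeR's quasi-likelihood test. Without replicate 4 they were -2.63 and 1.79. The interaction of Slc22a30 missed the threshold without diabetic vehicle replicate 2 (1.35, adjusted p = 0.0510) and, at an adjusted p just above it, without a low-count filter.

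The close copy Slc22a28 moved with Slc22a30. Its median level was 61.4 CPM in diabetic PMX-53 mice, 18.8 CPM in diabetic vehicle mice, 109.8 CPM in non-diabetic PMX-53 mice and 102 CPM in non-diabetic vehicle mice. For Slc22a28 diabetes on vehicle gave -2.06 ± 0.26 on the log2 scale and PMX-53 under diabetes gave 1.35 ± 0.26 (adjusted p = 2.48e-06 and 5.82e-04, edgeR's quasi-likelihood test). Because reads of these genes can be shared, the pair does not count as separate measurements. Slc22a29, which lies between them, went the other way, with log2 fold changes of 2.17 ± 0.34 (adjusted p = 3.35e-05) and -1.81 ± 0.33 (adjusted p = 3.64e-04). It was at 2.93 to 15.99 CPM in diabetic vehicle mice, where replicates 3 and 4 were within the 1.23 to 3.09 CPM of non-diabetic vehicle mice and the other 4 were above them.

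Slc22a2, the basolateral carrier of creatinine and metformin, was lower in diabetic vehicle mice with no overlap. Lowest, median and highest levels were 133, 164 and 186 CPM in diabetic PMX-53 mice, 99.4, 130.2 and 198 CPM in diabetic vehicle mice, 179.9, 198 and 225 CPM in non-diabetic PMX-53 mice, and 199.5, 214 and 221 CPM in non-diabetic vehicle mice. The highest diabetic vehicle library, replicate 4, lay just under the lowest non-diabetic vehicle library, and the diabetic groups overlapped each other. Diabetes on vehicle gave -0.65 ± 0.12 on the log2 scale (adjusted p = 8.73e-05) and PMX-53 under diabetes gave 0.26 ± 0.12 (adjusted p = 0.0987), in edgeR's quasi-likelihood test. PMX-53 passed without replicate 4 (0.40, adjusted p = 0.00106), without scaling (0.38, adjusted p = 0.00989) and in limma voom (0.34, adjusted p = 0.0118). The interaction, 0.34 ± 0.16 (adjusted p = 0.195), passed without replicate 4 (0.49, adjusted p = 0.00751) and in limma voom (0.42, adjusted p = 0.0329).

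Slc22a4 (OCTN1), the carrier of the antioxidant ergothioneine, was lower in diabetic vehicle mice than in the other 3 groups. It had 45.7, 54.2 and 58.4 CPM (lowest, median, highest) in diabetic PMX-53 mice, 27.7, 37.6 and 54.2 CPM in diabetic vehicle mice, 43.6, 52.5 and 56.4 CPM in non-diabetic PMX-53 mice, and 48.6, 54.1 and 58.2 CPM in non-diabetic vehicle mice. Overlap with the diabetic vehicle group came from its replicate 4 alone, the other 5 being at 27.7 to 40.6 CPM. It differed by -0.48 ± 0.10 on the log2 scale with diabetes on vehicle (adjusted p = 8.21e-04) and by 0.45 ± 0.10 with PMX-53 under diabetes (adjusted p = 0.00264), and both were called in edgeR with any library left out. Diabetic and non-diabetic mice on PMX-53 differed by 0.03 ± 0.10 (adjusted p = 0.887). The interaction of Slc22a4 was lost without diabetic vehicle replicate 1 (0.0573) or 2 (0.0595), diabetic PMX-53 replicate 3 (0.0538), non-diabetic PMX-53 replicate 5 (0.0543) or 6 (0.0510), or non-diabetic vehicle replicate 3 (0.0552) or 4 (0.0520), and without a low-count filter (0.0785), each an adjusted p.

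Replicate 4 of the diabetic vehicle group thus stood apart from its group in several of the 9. Setting it against the other 5 libraries, Slc22a7 was at 31.8 against 3.39 to 6.48 CPM, Slc22a30 at 77.5 against 11.2 to 37.2 CPM, and Slc22a2 at 198 against 99.4 to 149 CPM. It was also the highest of its group for Slc22a12 (683 CPM), Slc22a4 (54.2 CPM) and Slc22a19 (39.4 CPM), but not for Slc22a6 (713 CPM), Slc22a8 (245 CPM) or Slc22a13 (43.8 CPM). Kap, an androgen-regulated gene of the proximal tubule chosen after its values were seen, was at 5556 CPM in this library and at 145 to 1007 CPM in the other 5.

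**Figure D5:**
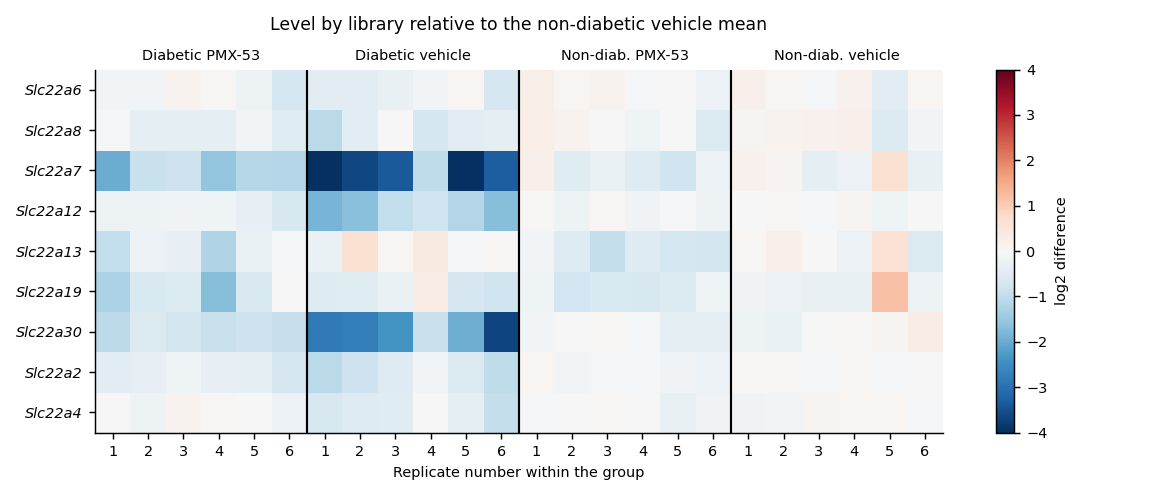
Log2 level of each transporter in every library relative to the mean of the non-diabetic vehicle group (colour, blue lower and red higher). The low values of Slc22a7 and Slc22a30 are in 5 of the 6 diabetic vehicle libraries, replicate 4 being paler, and Slc22a19 is highest in non-diabetic vehicle replicate 5.

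The 24 libraries held 10964992 to 22000895 counts, and the 9 genes had between 52 (Slc22a7) and 21107 (Slc22a12) counts per library. The labels name the samples as replicates without saying more, so p-values measure the spread between these samples, which may in part be technical. Mitochondrially encoded genes took 25.8% ± 2.56 of counts in diabetic PMX-53 libraries, 29.5% ± 2.14 in diabetic vehicle libraries, 22.9% ± 1.51 in non-diabetic PMX-53 libraries and 22.6% ± 1.65 in non-diabetic vehicle libraries (SD, n = 6 each). The diabetic vehicle libraries also stood apart at 3 genes chosen after their values were seen: Nnt was at 242 to 272 CPM there and 101 to 121 CPM in the other 18 libraries, Ide at 62.2 to 76.5 against 111 to 169 CPM, and Wdfy1 at 66.6 to 79.6 against 26.1 to 33.2 CPM. The labels give the strain as C57BL/6 and no substrain. A substrain or another trait of that group of mice cannot be told apart from diabetes or from the absence of PMX-53 in any result that rests on it.

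Markers of the proximal tubule, in which these transporters are made, were all detected in all groups. Counts called in this and the other lists stand beside 20.4% of all tested genes higher and 19.9% lower with diabetes on vehicle. With PMX-53 under diabetes these shares were 13.9% and 13.5%. The summed level of 6 markers of the late (S3) segment was 3908 to 4792 CPM in diabetic PMX-53 mice, 2978 to 5189 CPM in diabetic vehicle mice, 5876 to 7046 CPM in non-diabetic PMX-53 mice and 6477 to 7047 CPM in non-diabetic vehicle mice. The 5189 CPM was that of diabetic vehicle replicate 4, and the median of that group was 3406 CPM. Of these 6 S3 markers, with diabetes on vehicle, 4 fell and 1, Slc5a10, rose (log2 fold change 1.65 ± 0.14), while PMX-53 under diabetes went with 3 higher and 1 lower. Among 6 markers of the early (S1) segment, diabetes on vehicle went with 3 higher and 1 lower, and PMX-53 under diabetes with 1 higher. S1 markers summed to 1733 to 2442 CPM in diabetic PMX-53 mice, 1519.7 to 2541 CPM in diabetic vehicle mice, 1642 to 1865 CPM in non-diabetic PMX-53 mice and 1375 to 1678 CPM in non-diabetic vehicle mice. The sum of 6 markers of all segments was 11657 to 15312 CPM in diabetic PMX-53 mice, 11005 to 12711 CPM in diabetic vehicle mice, 14023 to 16679 CPM in non-diabetic PMX-53 mice and 13729.7 to 15828 CPM in non-diabetic vehicle mice, and 2 rose and 3 fell with diabetes on vehicle. In bulk cortex, fewer cells of a type and less RNA per cell cannot be told apart. The part of segment make-up in the differences of the 9 was not tested.

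Genes with higher expression in male than in female mouse kidney moved in the same comparisons. All 8 of these, which include Kap, Cyp4b1 and Timd2, were lower under diabetes on vehicle and higher with PMX-53 under diabetes. Their summed level was 6561 to 9323 CPM in diabetic PMX-53 mice, 1388 to 8220 CPM in diabetic vehicle mice, 13296 to 16648 CPM in non-diabetic PMX-53 mice and 13759 to 16817 CPM in non-diabetic vehicle mice. The 8220 CPM was that of diabetic vehicle replicate 4, the highest of its group for each of the 8, and the median of that group was 1607 CPM. Of 5 female-biased genes diabetes on vehicle went with 4 higher and 1 lower (Acsm3), and PMX-53 under diabetes with 1 higher and 4 lower. Their sum was 247 to 415 CPM in diabetic PMX-53 mice, 629 to 1301 CPM in diabetic vehicle mice, 412 to 583 CPM in non-diabetic PMX-53 mice and 486 to 949 CPM in non-diabetic vehicle mice. This sum mixes both directions, since Acsm3 made up much of it outside the diabetic vehicle group. The mean of Acsm3 was 216 CPM in diabetic PMX-53 mice, 67.6 CPM in diabetic vehicle mice, 414 CPM in non-diabetic PMX-53 mice and 493 CPM in non-diabetic vehicle mice. The part of these male- and female-biased genes in the transporter differences was not tested.

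Markers of other cell types moved in directions that differed between the types with diabetes on vehicle. Distal tubule and collecting duct markers gave 5 higher of 6, and those of the thick ascending limb 2 higher and 1 lower of 5. For podocytes 0 of 5 were called in edgeR, for endothelium 3 of 5 fell and for immune cells 2 of 4 tested fell. With PMX-53 under diabetes 4 podocyte, 3 endothelial and 2 immune markers rose, 2 thick ascending limb markers fell, and the distal ones gave 1 in each direction. Summed immune markers were at 24.9 to 40.8 CPM in diabetic PMX-53 mice, 18.2 to 24.0 CPM in diabetic vehicle mice, 34.4 to 48.0 CPM in non-diabetic PMX-53 mice and 36.7 to 60.1 CPM in non-diabetic vehicle mice. Liver markers, of which 1 of 4 tested rose with diabetes on vehicle and 3 fell with PMX-53 under diabetes, summed to at most 83.6 CPM in any library. Their part in the transporter differences was not tested.

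Among the other 16 Slc22 genes looked for, 13 were tested and 3 rose and 5 fell with diabetes on vehicle (median log2 fold change -0.08, against 0.00 over all genes). Of all tested genes 20.4% were called higher and 19.9% lower. Besides Slc22a28 and Slc22a29, the called genes with the smallest p were Slc22a18 (-0.74 ± 0.10) and Slc22a17 (-0.52 ± 0.09), with adjusted p of 2.97e-06 and 5.49e-05 in edgeR's quasi-likelihood test. With PMX-53 in diabetic mice 4 rose and 1 fell (13.9% and 13.5% of all tested genes), Slc22a18 at 0.52 ± 0.10 and Slc22a17 at 0.33 ± 0.09. None of the 13 passed with PMX-53 in non-diabetic mice, and 1 rose and 2 fell with diabetes on PMX-53 (5.52% and 4.52% of all tested genes).

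Partners of organic ion secretion were also examined. Slc47a1 (MATE1), which passes organic cations taken up by Slc22a2 on to the urine, was at 481 ± 35.2 CPM in diabetic PMX-53 mice, 377 ± 63.7 CPM in diabetic vehicle mice, 596 ± 45.3 CPM in non-diabetic PMX-53 mice and 606 ± 29.0 CPM in non-diabetic vehicle mice (SD, n = 6 each). It fell with diabetes on vehicle (log2 fold change -0.69 ± 0.08, adjusted p = 3.40e-07) and on PMX-53 (-0.31 ± 0.08, adjusted p = 0.0161), and rose when diabetic mice received PMX-53 (0.35 ± 0.08, adjusted p = 0.00220), in edgeR's quasi-likelihood test. Of the 8 exporters of organic ions, diabetes on vehicle went with 2 higher and 3 lower (20.4% and 19.9% of all tested genes), and PMX-53 under diabetes with 3 higher and 1 lower (13.9% and 13.5%). The multidrug export pumps Abcc4 (0.64 ± 0.12) and Abcb1b (0.60 ± 0.16) rose and Abcb1a (-0.58 ± 0.17) fell with diabetes. Abcb1b fell with PMX-53 in diabetic mice (-1.04 ± 0.16) and Abcc4 stood at 0.01 ± 0.11.

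Dicarboxylate carriers and scaffolds gave 2 higher and 3 lower of 8 with diabetes on vehicle (20.4% and 19.9% of all tested genes). The citrate carrier Slc13a5 fell (-1.24 ± 0.20), as did the scaffold genes Slc9a3r1 (-0.28 ± 0.05) and Slc9a3r2 (-0.40 ± 0.09), and the dicarboxylate carrier Slc13a2 rose (0.77 ± 0.20, all log2 fold changes). Slc13a5 was scarce, at 1.15 to 2.49 CPM in diabetic vehicle libraries and 2.05 to 4.40 CPM in the other 18. Slc13a3, another carrier of this list, chosen after its values were seen, was at 486 to 804 CPM and 417 to 786 CPM. With PMX-53 in diabetic mice 3 rose and 1 fell, Slc13a5 at 0.92 ± 0.21 and Slc13a2 at -0.82 ± 0.20. Beside the urate carrier Slc22a12, 3 of 7 tested urate handling genes rose and 2 fell with diabetes on vehicle. Xdh, which encodes the enzyme that makes urate, rose by 0.65 ± 0.09 and the basolateral urate carrier Slc2a9 by 0.43 ± 0.12, while the phosphate and anion carriers Slc17a3 (-1.18 ± 0.17) and Slc17a1 (-0.28 ± 0.07) fell. PMX-53 in diabetic mice gave 0 higher and 4 lower of the 7, Xdh at -0.36 ± 0.09, although Slc17a3 was at 0.44 ± 0.17 with an adjusted p of 0.0510.

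Of 7 genes of the organic anion transporting polypeptide family, diabetes on vehicle went with 1 higher and 4 lower (20.4% and 19.9% of all tested genes), and PMX-53 under diabetes with 3 higher and 2 lower (13.9% and 13.5%). Slco1a1, which is also among the male-biased genes, was at -3.48 ± 0.74 and 2.29 ± 0.71 on the log2 scale in these comparisons. Slco1a6 (-0.63 ± 0.09) and Slco3a1 (-0.92 ± 0.14) fell and the prostaglandin carrier Slco2a1 (0.64 ± 0.08) rose with diabetes on vehicle. Among 10 genes of regulators named for this family, 2 rose and 5 fell. The nuclear factors Hnf4g (-0.90 ± 0.11), Hnf4a (-0.35 ± 0.08) and the glucocorticoid receptor gene Nr3c1 (-0.57 ± 0.08) fell, and Cebpb rose (1.12 ± 0.18). With PMX-53 in diabetic mice 1 of the 10 rose, Nr3c1 (0.35 ± 0.08), and 5 fell, Cebpb at -1.47 ± 0.18. In non-diabetic mice none of the genes in these lists passed with PMX-53.

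Across the 24 libraries the 9 genes did not all move as a block. For pairs among Slc22a2, Slc22a4, Slc22a7, Slc22a12 and Slc22a30, Pearson's r of log2 CPM ran from 0.77 to 0.94. Without group means it ran from 0.47 to 0.93 for these pairs. After removal of group means, which leaves the spread between libraries of a group, Pearson's r of log2 CPM was 0.93 for Slc22a2 with Slc22a12, 0.84 for Slc22a4 with Slc22a30 and 0.72 for Slc22a13 with Slc22a19, but -0.44 for Slc22a6 with Slc22a19 and 0.43 for the neighbours Slc22a6 and Slc22a8. These values describe 24 libraries that share their scaling, and single libraries such as diabetic vehicle replicate 4 and non-diabetic vehicle replicate 5 weigh on them. Slc22a7 went with Slc22a30 at 0.92 with group means and 0.58 without.

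Outside the 9, the gene most like Slc22a30 by r over the 24 libraries was its close copy Slc22a28 (0.99, and 0.97 without group means), followed by Pzp (0.98 and 0.91). For Slc22a12 these were Chd3 (0.97 and 0.85) and Usp20 (0.97 and 0.87), and for Slc22a7 Slc9a8 (0.97 and 0.87) and Bdh1 (0.96 and 0.87). Slc22a2 was most like Mettl7b (0.98 and 0.95) and Slc6a20b (0.97 and 0.91), and Slc22a4 most like Tcaim (0.92 and 0.89) and Pm20d1 (0.91 and 0.79). Slc22a6 was most like Acly (0.89 and 0.88), and Slc22a8 most like Miox (0.85 and 0.81) and D8Ertd82e (0.83 and 0.73). Slc22a13 was most like Mettl7a2 (0.94 and 0.91) and Irx1 (0.92 and 0.91), and Slc22a19 most like Cyp7b1 (0.86 and 0.84), an S3 marker here, and Wnt5a (0.86 and 0.80). They are given as likeness of pattern and carry no test.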

How the data were processed

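The RNA of 24 renal cortex samples was depleted of ribosomal RNA and sequenced with a directional kit, per the labels' protocols. Per the submitters' processing notes, bcl2fastq 2.20.0.422 and STAR were used, with GRCm38 as the build. Not given in the sources used here were STAR's version, the annotation, the counter and its strand setting. The deposited table holds raw whole-number counts of reads per gene, without normalization, per the file headers, with 0 entries that name no gene.

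Groups follow the labels. Genes kept by edgeR's default expression filter (15808 of 48526) received TMM scaling (trimmed mean of M-values) and were fitted in 1 model of 24 libraries with edgeR 4.0.16 (R 4.3.3), by the robust quasi-likelihood F test with Benjamini-Hochberg adjustment over all 15808 genes and a threshold of 0.05. The standard error is the size of the log2 fold change divided by the square root of F. CPM were computed here from the counts and scaled libraries. Total counts of 10964992 to 22000895 per library mean that genes of few counts carry larger counting error.

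Alternatives were other scaling, other filters, DESeq2 1.42.0, limma 3.58.1 voom, a replicate block, removal of mitochondrial and ribosomal RNA genes, only the groups compared, thinned libraries and each library left out. In each list up to 4 genes with the smallest p for diabetes on vehicle are named, and others are named as chosen after their values were seen or only counted. For likeness the 2 genes with the highest r are named, except 1 that is not reported here. The 9 genes and all lists were chosen with earlier results of these data known. Positions and sequences come from GENCODE M21 and RefSeq. No 2 libraries of a group were alike within sampling noise: over the 60 pairs, chi-square divided by its degrees of freedom was 5.21 or more.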

Additional observations from a re-analysis of the deposited data

Results flagged for a closer look

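Slc22a7 in replicate 4 of the diabetic vehicle group, at 31.8 CPM, lay far from the other 5 libraries of the group at 3.39 to 6.48 CPM. Slc22a19 in replicate 5 of the non-diabetic vehicle group, at 71.6 CPM, lay far from the other 5 at 25.8 to 28.8 CPM. In both the gap to the nearest library, divided by the range of the group, exceeded Dixon's 95% critical value for 6 samples, at 0.891 for Slc22a7 and 0.933 for Slc22a19. Of the 36 groups examined, 2 did so, and chance gives about 1 in 20.

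The PMX-53 difference in diabetic mice differed from that in non-diabetic mice in 4 of the 9 genes by the interaction term of edgeR's quasi-likelihood fit, against 9.42% of all tested genes called and 4.66% called positive. The interaction was 0.51 on the log2 scale for Slc22a4 (adjusted p = 0.0315), 1.93 for Slc22a7 (adjusted p = 0.0351), 1.12 for Slc22a12 (adjusted p = 8.47e-04) and 1.46 for Slc22a30 (adjusted p = 0.0263). The diabetic PMX-53 libraries were higher than the diabetic vehicle mean in 6 of 6 for each of these genes. The calls of Slc22a4, Slc22a7 and Slc22a30 were each lost when single libraries were left out, and that of Slc22a12 was not. These interactions rest in part on the diabetic vehicle group, as do the results for diabetes on vehicle and PMX-53 in diabetic mice.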

How the results depend on the processing

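The calls of Slc22a2, Slc22a4, Slc22a7, Slc22a8, Slc22a12 and Slc22a30 with diabetes on vehicle, and of Slc22a4, Slc22a12 and Slc22a30 with PMX-53 in diabetic mice, kept direction and threshold under all 10 alternatives and with each of the 24 libraries left out. The count of the 9 genes called on PMX-53 between diabetic and non-diabetic mice, 0, became 3 in limma voom and 3 in a fit of only these groups, and 0 to 3 with a library left out. The interaction count, 4, became 1 without a low-count filter, which tests more genes, and 1 to 5 with a library left out. Over all genes, PMX-53 in non-diabetic mice gave 0 calls, 1 without the filter and 5 in DESeq2. Diabetes on PMX-53 gave 1587 calls over all genes, 871 without scaling and 2560 in limma voom, and the interaction 1489, with 1022 to 2242 when a library was left out. The cause of these shifts was not tested otherwise.

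Differences close to 0 changed sign in places, none of them called. With PMX-53 in non-diabetic mice, Slc22a6 (0.02) ran between -0.057 and 0.070 and Slc22a8 (-0.06) between -0.15 and 0.032 with a library left out. With diabetes on PMX-53, Slc22a4 (0.03) ran between -0.010 and 0.068. The interaction of Slc22a13 (-0.01) was 0.12 without scaling, 0.052 with thinned libraries and -0.14 to 0.10 with a library left out, and that of Slc22a19 (0.24) was -0.10 to 0.42.

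Same-numbered libraries of different groups did not deviate together (mean correlations of deviations from -0.01 to 0.02), so the numbers do not pair them. With a replicate block 7 of the 9 were called with diabetes on vehicle, 5 with PMX-53 in diabetic mice, 0 with PMX-53 in non-diabetic mice, 0 with diabetes on PMX-53 and 3 for the interaction, and over all genes 6221, 4136, 0, 1483 and 1344. At the depth of these libraries Slc22a7 had as few as 52 counts in the diabetic vehicle group, and Slc22a19 had as few as 166 over all groups, so their values carry the larger counting errors.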
